A study of Mus musculus with 12 samples.

Results

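The 7 genes described here, Crem, Fhl5, Gtf2a1l, Tbpl1, Taf7l, Brdt and Sox30, encode a group of transcription regulators of male germ cells around the factor CREM. Their entries were found by gene symbol. Each had 1 entry among the 51826 entries of the sperm count table and 1 among the 23502 entries of the testis count table, and all 7 passed the filter on low counts in both tables. RNA-seq was done on 12 libraries of C57BL/6J mice in 4 groups of 3 biological replicates. WT and Xap5l KO sperm came from the cauda epididymis at P56, and Xap5l KO is a CRISPR-Cas9 line that lacks Xap5l (listed as Fam50b) in all cells. WT and Xap5 cKO whole testes came from P16 mice, and Xap5 cKO carries a floxed Xap5 (listed as Fam50a) deleted by the Stra8-EGFPCre allele, which is active in germ cells, so that somatic cells of these testes keep Xap5. The labels call the controls of both tissues WT and do not say which alleles the P16 controls carried.

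CREM binds cAMP response elements through its leucine zipper and is required for the expression of many postmeiotic genes. In germ cells it is activated by the LIM-only coactivator FHL5 (also named ACT), whereas the same locus also makes repressor isoforms, which counts per gene do not separate. Several general transcription factors have germ cell versions: GTF2A1L is a TFIIA subunit, TBPL1 (TRF2) a relative of the TATA-binding protein, and TAF7L a relative of the TFIID subunit TAF7. BRDT is the testis-specific BET protein that binds acetylated histones through its bromodomains, and SOX30 is a DNA-binding SOX factor needed for spermiogenesis.

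Upstream sequences of 3 genes are shown 5′ to 3′ on the strand of the gene, each 250 bases long and ending just before the RefSeq start (build GRCm38.p6). Sox30 is shown because the study lists primers for CUT&Tag qPCR, a measurement of chromatin-bound protein, that lie in this stretch. Gtf2a1l and Taf7l are shown because their log2 fold changes between genotypes were the furthest apart in testes.
Sox30, chr11:45980060-45980309, plus strand, with the primers' amplicon in capitals: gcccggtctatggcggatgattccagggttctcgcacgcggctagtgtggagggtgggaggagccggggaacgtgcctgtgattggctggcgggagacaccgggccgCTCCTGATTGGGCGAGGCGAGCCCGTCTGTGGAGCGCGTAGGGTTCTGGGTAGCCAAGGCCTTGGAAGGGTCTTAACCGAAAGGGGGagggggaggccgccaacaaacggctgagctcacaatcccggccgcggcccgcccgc
Gtf2a1l, chr17:88668410-88668659, plus strand, with motif letters in capitals: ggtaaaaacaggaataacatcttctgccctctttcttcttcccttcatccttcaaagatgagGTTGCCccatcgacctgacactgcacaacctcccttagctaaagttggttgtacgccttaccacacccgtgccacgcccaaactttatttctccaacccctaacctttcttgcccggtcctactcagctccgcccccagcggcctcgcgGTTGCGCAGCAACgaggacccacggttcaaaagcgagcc
Taf7l, chrX:134476491-134476740, minus strand, with motif letters in capitals: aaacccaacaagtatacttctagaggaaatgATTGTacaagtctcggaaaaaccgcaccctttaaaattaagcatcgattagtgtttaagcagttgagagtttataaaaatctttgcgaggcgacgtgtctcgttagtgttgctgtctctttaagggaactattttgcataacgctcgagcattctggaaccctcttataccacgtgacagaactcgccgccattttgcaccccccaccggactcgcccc
The Sox30 amplicon is 87 bases long and covers bases 143 to 57 before the start.

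Motifs were searched on both strands in RefSeq windows of 300 bases, from 250 before to 50 after each start, of which 32851 from 27025 genes were given. Windows were found for Fhl5 (2 windows), Brdt, Tbpl1, Sox30, Gtf2a1l and Taf7l, but not for Crem. The full cAMP response element TGACGTCA occurs in 1.79% of all windows and its core TGACG, which the full element contains, in 20.8%. Neither was found in a window of the 6 genes. GTTGCC, an arm of the X-box of RFX factors, was found in Gtf2a1l at 188 bases before the start, against 12.5% of all windows. The same stretch of Gtf2a1l holds GTTGCNNNGCAAC at 39 bases before the start, an arrangement of inverted arms that occurs in 0.225% of all windows, and these letters were chosen after the sequence had been read. ACAAT, the core bound by SOX factors, occurs in 31% of all windows and was found in Sox30, Taf7l and 1 window of Fhl5. These matches describe letters in a window and not bound sites.

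The genes lie on 7 chromosomes of GRCm38. Crem spans 3266048 to 3337748 of chromosome 18 on the minus strand, Fhl5 25199908 to 25242876 of chromosome 4 on the minus strand, and Gtf2a1l 88668660 to 88715152 of chromosome 17 on the plus strand. Tbpl1 spans 22703879 to 22731938 of chromosome 10 on the minus strand and Taf7l 134460118 to 134476490 of chromosome X on the minus strand. Brdt spans 107331159 to 107387058 of chromosome 5 and Sox30 45980310 to 46017994 of chromosome 11, both on the plus strand. Exons of Crem share 472 bp with the antisense entry Gm6225 (8.01% of its exonic bases), and exons of Tbpl1 share 407 bp with the antisense gene Slc2a12 (12.4%). The sources used here do not say whether strand was used in counting, so reads in these stretches cannot be assigned. In the other 5 genes no transcript window of 100 bases was shared with another annotated gene.

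The library totals ranged from 32251198 to 52308452 counts. The deleted gene Fam50b was counted 574, 440 and 419 times in WT and 18, 23 and 8 times in Xap5l KO sperm. For Fam50a the counts were 819, 811 and 988 in control testes against 673, 616 and 651 after the germ cell deletion. Fam50b was also lower in Xap5 cKO testes, with 532, 539 and 197 counts in WT against 6, 0 and 7. Sperm libraries were rich in the 6 elongating spermatid markers, which include the protamines, with summed levels between 50369 and 126623 CPM (counts scaled to TMM-normalized library size) in WT and between 40015 and 77484 in Xap5l KO. Smcp and Odf1 made up most of these sums, with 80056.8 and 29600.5 CPM in WT replicate 1. Their 2 log2 fold changes were negative, those of the other 4 markers, protamines included, were positive, and none was called. The sperm libraries also held leukocyte markers (5 genes, 667 to 724 CPM in WT against 119 to 432 in Xap5l KO). Erythroid markers (3 genes) summed to 2932 to 14656 CPM in WT and 1094 to 3677 CPM in Xap5l KO sperm, with WT replicate 1 the highest. WT testis replicate 3 stood apart, since its log2 CPM correlated more closely with those of the Xap5 cKO libraries (r between 0.928 and 0.933) than WT replicates 1 and 2 did (r between 0.897 and 0.903), as a description over genes. Where leaving out a library changed a call of the 7 genes, this is stated with the library.

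Levels per exon length (RPKM, means ± SD, n = 3) placed the 7 genes in a different order in each tissue. In WT sperm Crem (15.9 ± 5.83 RPKM), Gtf2a1l (14.7 ± 2.34), Fhl5 (14.6 ± 5.44) and Sox30 (11.2 ± 2.14) came first, and each overlapped the next in its range over libraries. Tbpl1 (7.71 ± 0.88), Brdt (5.21 ± 1.34) and Taf7l (1.12 ± 0.069) followed without overlap between neighbours. In WT testes Taf7l was first (113 ± 2.21 RPKM), followed by Brdt (36.6 ± 6.30) and Tbpl1 (33.7 ± 3.19), which overlapped each other. Sox30 (14.5 ± 3.10), Gtf2a1l (11.7 ± 4.59) and Crem (8.48 ± 0.673) overlapped their neighbours in the order, and Fhl5 was last (0.452 ± 0.263). The tables were normalized separately, so these are orders within a tissue.

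The orders of the means also differed between genotypes, in part within the spread of the libraries. In Xap5l KO sperm Gtf2a1l was first (43.1 ± 15.7 RPKM), ahead of Sox30 (24.4 ± 14.3), Crem (21.8 ± 6.31) and Fhl5 (21.0 ± 1.64), and these neighbours overlapped. In Xap5 cKO testes Taf7l stayed first (124 ± 16.2 RPKM) and Gtf2a1l was last (0.366 ± 0.142), overlapping Fhl5 (0.416 ± 0.274). Between these lay Tbpl1 (18.3 ± 0.667), Brdt (18.2 ± 2.68), Sox30 (5.48 ± 1.17) and Crem (3.69 ± 0.971). Here Tbpl1 overlapped Brdt, and Sox30 overlapped Crem.

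In WT testes at P16, 6 of the 7 genes were detected above 12 CPM in every library, while the elongating spermatid markers Prm1, Prm2, Tnp1, Tnp2, Odf1 and Smcp together reached 0.195 to 0.604 CPM. The round spermatid list summed to 17.0 to 34.4 CPM, and its members Acrv1, Tssk2, Txndc8 and Catsper3 had at most 10 counts in any WT library. The spermiogenic regulators were thus measured in these testes at an age when the markers of late spermatids were near 0.

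**Figure D1:**
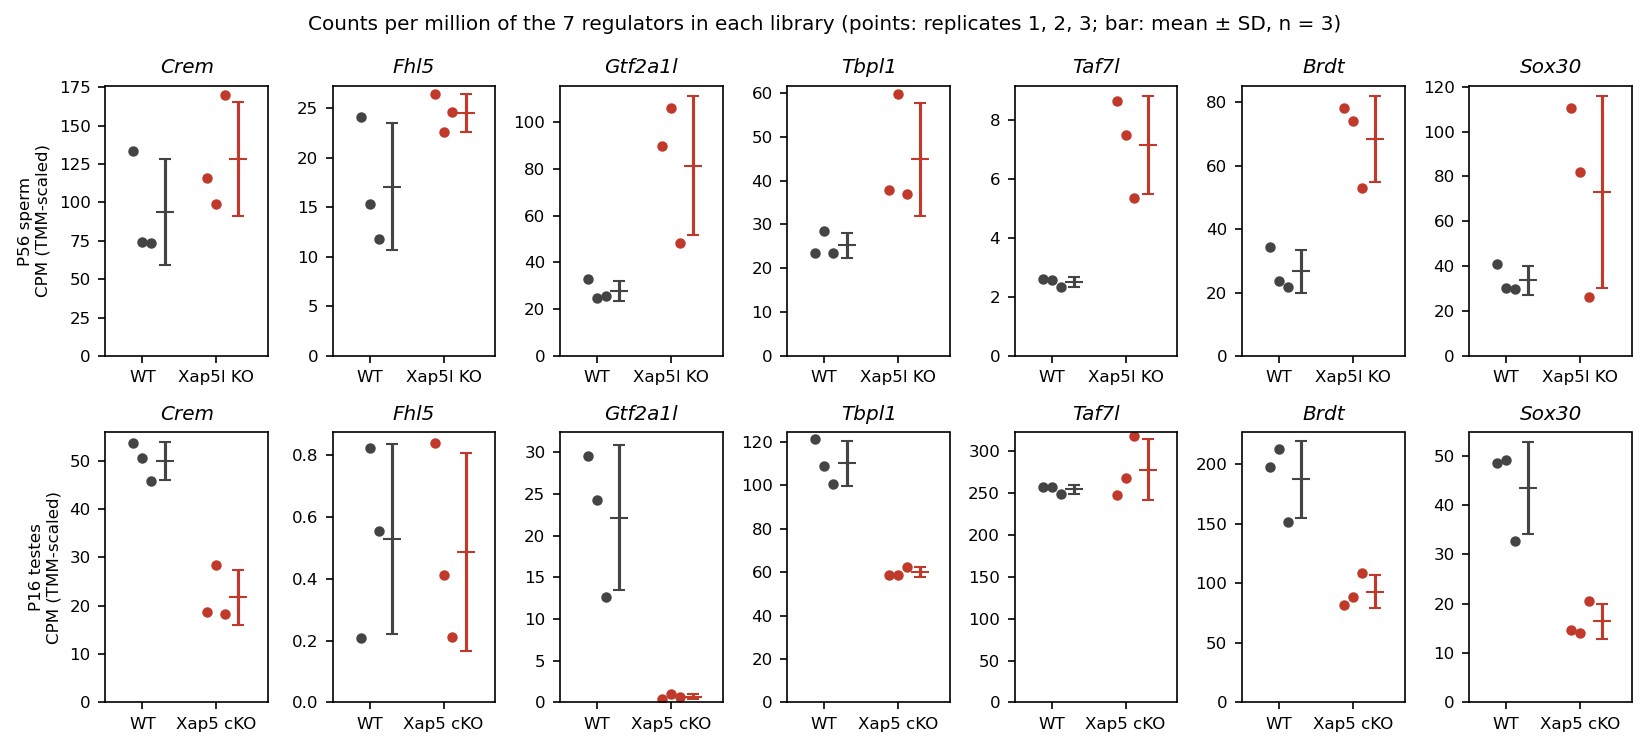
Level of each of the 7 genes in every library, in CPM on linear axes that start at 0, with sperm in the upper and testes in the lower row. Points are replicates 1, 2 and 3, and bars give mean ± SD. Gtf2a1l, Tbpl1, Taf7l and Brdt do not overlap between genotypes in sperm, and Crem, Gtf2a1l, Tbpl1, Brdt and Sox30 do not overlap in testes.

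The first comparison asked how the transcripts of these regulators differ between WT and Xap5l KO sperm. Gtf2a1l, Taf7l and Brdt were upregulated, by 2.93-fold, 2.85-fold and 2.57-fold, and none of the 7 genes was downregulated. Calls required a fold change above 2 and, in edgeR's quasi-likelihood test, an adjusted p-value under 0.05. Thus 3 of 7 genes were called up, where 7.59% of all 20945 genes tested were, and 0 of 7 were called down, where 1.27% of all were. At an unadjusted p-value under 0.05 edgeR gave 4 genes up and 0 down, where 2385 and 605 of all genes were. DESeq2 called 4 up and 0 down, where 2140 and 347 of all genes were. By the adjusted p-value alone the counts were also 3 higher and 0 lower, where 9.02% and 3.07% of all genes were. All 7 log2 fold changes were positive, with a median of 1.12, against -0.08 for all genes tested. In a whole sample of sperm, more cells of a type cannot be told apart from more RNA per cell.

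The CREM gene itself and its coactivator did not pass the test in sperm with all 6 libraries. Crem was at 133, 74.3 and 73.5 CPM in WT replicates 1, 2 and 3 and at 116, 99.2 and 170 CPM in Xap5l KO replicates. WT replicate 1 lay above 2 of the 3 Xap5l KO libraries, so the groups overlapped. The log2 fold change of Crem was 0.45 ± 0.307 (SE, edgeR adjusted p = 0.315), with an approximate 95% interval from -0.15 to 1.06. Without WT replicate 1 the value for Crem was 0.79 (adjusted p = 0.0822), and without WT replicate 3 or Xap5l KO replicate 3 it was 0.30 and 0.27. Fhl5 was at 24.2, 15.4 and 11.8 CPM in WT and at 26.4, 22.6 and 24.6 CPM in Xap5l KO sperm. Again WT replicate 1 was the high control library and lay within the Xap5l KO range. For Fhl5 the log2 fold change was 0.52 ± 0.267 (edgeR unadjusted p = 0.0791, adjusted p = 0.196), with an approximate 95% interval from -0.00031 to 1.05. Without WT replicate 1 Fhl5 was at 0.85 and passed the adjusted p-value (0.0394) but not the fold threshold, and without WT replicate 3 it was at 0.31 (adjusted p = 0.522).

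Of the 3 germ cell versions of general transcription factors, 2 were upregulated in Xap5l KO sperm. Gtf2a1l, the TFIIA subunit, was at 32.9, 24.9 and 25.6 CPM in WT and at 89.7, 106 and 48.4 CPM in Xap5l KO libraries. The lowest Xap5l KO library, replicate 3, still lay above all WT libraries. This was a log2 fold change of 1.55 ± 0.297 (edgeR adjusted p = 0.0171). Taf7l, the TAF7 relative, was the least abundant of the 7 genes, with 86, 109 and 108 counts in WT against 303, 415 and 313 in Xap5l KO sperm, or 2.61, 2.59 and 2.33 CPM against 8.65, 7.49 and 5.37 CPM. Its WT libraries differed little and all Xap5l KO libraries lay above them. This gave a log2 fold change of 1.51 ± 0.253 (edgeR adjusted p = 0.0139).

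Tbpl1, which replaces the TATA-binding protein at some promoters, was at 23.6, 28.5 and 23.5 CPM in WT and at 37.8, 59.7 and 36.9 CPM in Xap5l KO sperm. The groups did not overlap, which held for 4 of the 7 genes in this direction and for 19.2% of all genes tested. Its log2 fold change of 0.83 ± 0.240 missed both thresholds (edgeR adjusted p = 0.0510), and DESeq2 gave an adjusted p of 0.0121 at 0.88.

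Brdt, the bromodomain protein, was at 34.5, 23.8 and 21.8 CPM in WT and at 78.2, 74.2 and 53.1 CPM in Xap5l KO sperm. All Xap5l KO libraries lay above WT replicate 1, the highest control, and the log2 fold change was 1.36 ± 0.253 (edgeR adjusted p = 0.0163). Sox30 was at 41.1, 30.1 and 29.9 CPM in WT and at 111, 81.9 and 26.5 CPM in Xap5l KO sperm. Replicates 1 and 2 of Xap5l KO were high, but replicate 3 lay below all WT libraries. With all libraries the log2 fold change of Sox30 was 1.12 ± 0.429 (edgeR adjusted p = 0.105), whereas without Xap5l KO replicate 3 it was 1.59 (adjusted p = 0.00288) and without Xap5l KO replicate 1 it was 0.68 (adjusted p = 0.314), and DESeq2 gave 1.18 with an adjusted p of 0.0347 on all libraries.

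**Figure D2:**
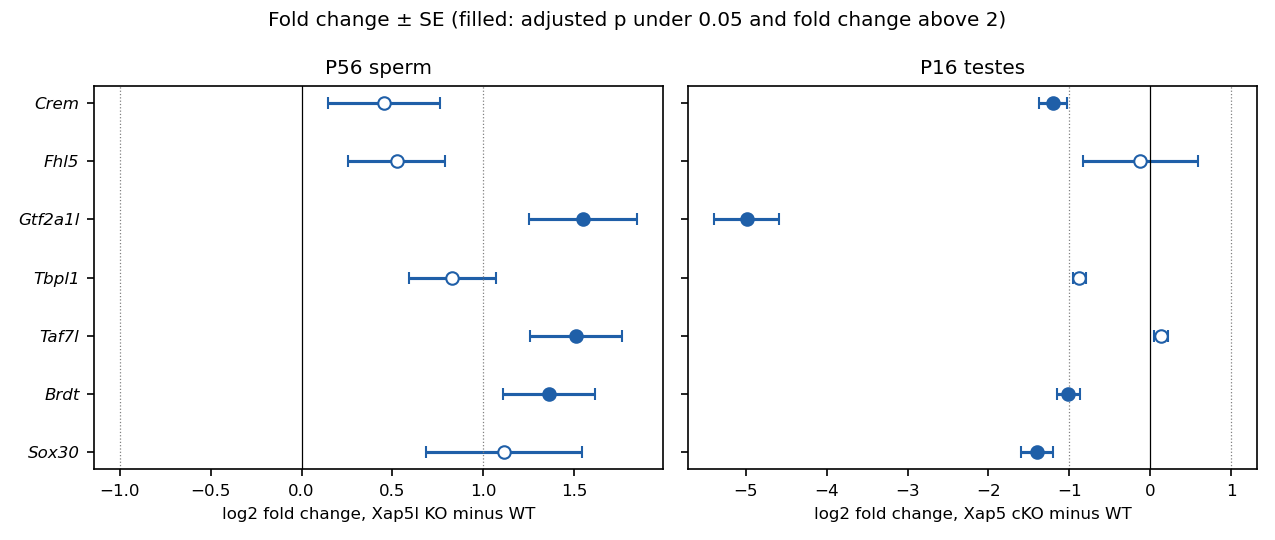
Log2 fold change ± SE of each gene in Xap5l KO sperm (left) and Xap5 cKO testes (right), with dotted lines at a fold change of 2. Filled points passed both thresholds: Gtf2a1l, Taf7l and Brdt in sperm, and Crem, Gtf2a1l, Brdt and Sox30 in testes, where Gtf2a1l lies at -4.99.

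The calls in sperm depended on single libraries. Leaving out replicate 2 or 3 of WT, or replicate 2 of Xap5l KO, left none of the 7 genes upregulated, and 1 gene was called up in the whole table in each of these fits. Without Xap5l KO replicate 1 only Taf7l remained (483 genes in the whole table), and without WT replicate 1 all 3 calls remained (1912 genes). Without Xap5l KO replicate 3 there were 5 (2402 genes in the whole table), with Tbpl1 (1.03, adjusted p = 0.0196) and Sox30 added. The log2 fold changes themselves ranged over the 6 fits from 1.31 to 1.89 for Gtf2a1l, from 1.36 to 1.76 for Taf7l and from 1.23 to 1.59 for Brdt. With all 6 libraries, adjusted p-values in edgeR went no lower than 0.0118 in the whole table.

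**Figure D3:**
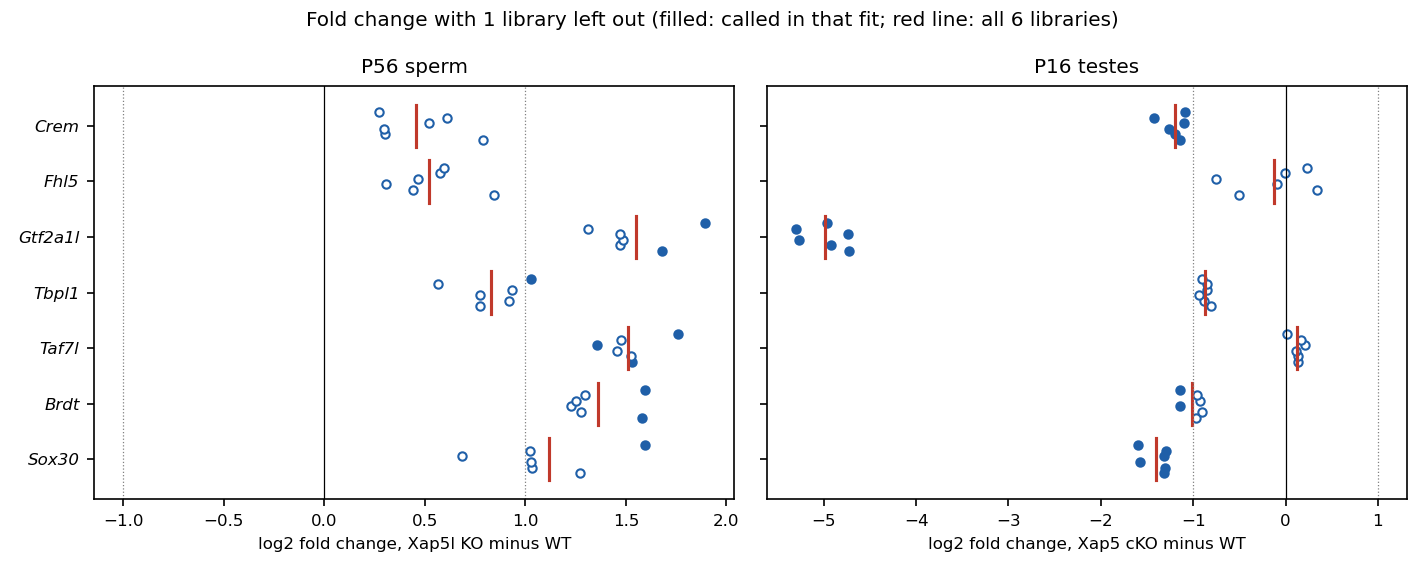
Log2 fold change of each gene when 1 of the 6 libraries was left out, for sperm (left) and testes (right). Filled points were called in that fit, and red lines mark the value with all libraries. In sperm the values of Gtf2a1l, Taf7l and Brdt stay above 1 in all 6 fits while their calls are lost in 4, 3 and 4 of them, and in testes the calls of Crem, Gtf2a1l and Sox30 are kept in all 6.

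Markers of pachytene spermatocytes and round spermatids were also higher in Xap5l KO sperm. In edgeR 0 of 5 tested spermatogonial markers (median log2 fold change -0.25) and 0 of 5 tested leptotene and zygotene markers (median -0.08) were called. In Xap5l KO sperm 5 of 6 pachytene spermatocyte markers were upregulated, and their summed level was 2105, 1365 and 1242 CPM in WT and 2436, 2505 and 3106 CPM in Xap5l KO libraries. The pachytene sum was highest in Xap5l KO replicate 3, where the markers Pgk2 and Ldhc were the highest of their group. Hspa2 (341, 469 and 165 CPM in Xap5l KO), Spag6 and Clgn were the lowest of their group there, and Adam2 lay between. Gtf2a1l, Taf7l and Brdt were also the lowest of their group in that library. Pgk2, which was not called, made up 1188, 1030 and 1953 CPM of the Xap5l KO sums. Of 6 round spermatid markers 4 were upregulated, with sums of 757, 454 and 491 CPM against 1119, 883 and 873 CPM. Tssk2, which was not called, made up 862, 676 and 743 CPM of the latter. None of the 6 elongating spermatid markers was called. WT replicate 1, the highest control for all of the 7 genes but Tbpl1, was also the highest control for the pachytene, round and elongating spermatid lists. Sertoli cell markers summed to 15.2 to 21.9 CPM in WT and 6.35 to 17.5 CPM in Xap5l KO sperm. The epididymal epithelium list summed to 5864 to 7970 CPM in WT and 4141 to 5777 CPM in Xap5l KO, nearly all of it Crisp1 and Adam7, while Lcn5 and Cst11 had 0 counts in every WT library. The part of these cells in the values of the 7 genes was not tested.

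**Figure D4:**
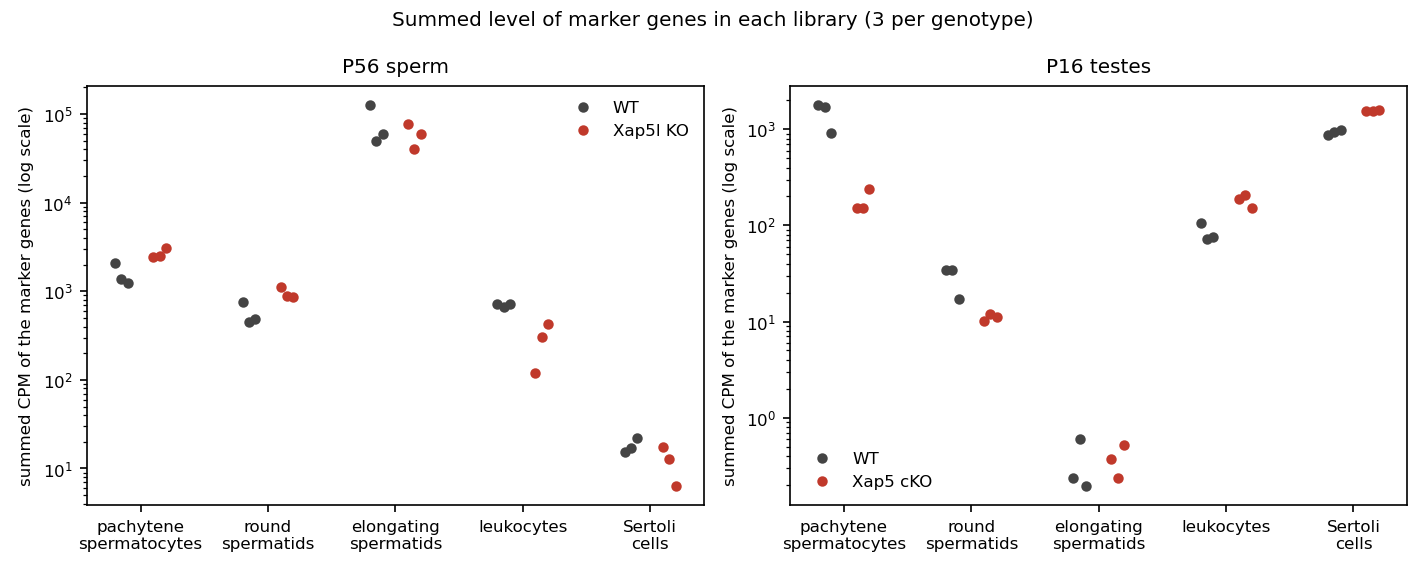
Summed level of 5 marker lists in each library, in CPM on log axes, for sperm (left) and testes (right). In sperm the pachytene and round spermatid sums are higher in all Xap5l KO libraries than in all WT libraries and the leukocyte sums lower. In testes the pachytene sums are 919 to 1787 CPM in WT and 151 to 237 CPM in Xap5 cKO, the Sertoli sums are higher in Xap5 cKO, and the elongating spermatid sums are below 1 CPM in every library.

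The genes that surround the 7 regulators in their pathways were described from 4 lists. Of 11 postmeiotic target genes tested in sperm, only Ace, which encodes the angiotensin-converting enzyme with its testis-specific form, was upregulated (log2 fold change 1.12, edgeR adjusted p = 0.0290) and none was downregulated. The protamines Prm1 and Prm2 had values of 0.70 and 0.96, the transition proteins Tnp1 and Tnp2 0.50 and 0.42, and the mitochondrial capsule gene Smcp -0.97, and none of these passed the test. The median of the list was 0.57. Camk4, a kinase that phosphorylates CREM, had a value of 0.57 (edgeR adjusted p = 0.175).

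Among 8 other regulators of pachytene and spermiogenic expression, 3 were upregulated in Xap5l KO sperm and the median was 0.90. These were Papolb (1.46, edgeR adjusted p = 0.0182), a germ cell poly(A) polymerase, Ddx25 (1.35, adjusted p = 0.0189), an RNA helicase, and Kif17 (1.13, adjusted p = 0.0345), a kinesin that moves FHL5 out of the nucleus. Their counts in all Xap5l KO libraries lay above those in WT, for Kif17 at 8766, 6601 and 7626 counts against 17732, 21965 and 22264. Creb3l4 (0.998, adjusted p = 0.0652) and Tcfl5 (0.80, adjusted p = 0.0853) missed the threshold, and Piwil1, the PIWI protein of pachytene piRNAs, was at -0.97 (adjusted p = 0.104).

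The widely expressed relatives of the 7 proteins gave no call in sperm. Of 13 genes 11 were tested, with a median log2 fold change of -0.12 and a range from -0.63 (Creb1) to 0.50 (Tbp). Gtf2a1, the widely expressed relative of Gtf2a1l, was at -0.28, Taf7 at -0.12, and the BET genes Brd2 and Brd3 at -0.06 and 0.44. The difference between a germ cell gene and its relative was not tested. Of 14 other TFIID subunits only Taf9 was upregulated (1.31, edgeR adjusted p = 0.0314), and their median was -0.10. All 5 list genes called in sperm (Ace, Taf9, Kif17, Papolb and Ddx25) lost their calls when any of WT replicates 2 and 3 and Xap5l KO replicates 1 and 2 was left out.

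The second comparison asked how the same transcripts differ between WT and Xap5 cKO testes at P16. Gtf2a1l fell most, to levels 31.8-fold lower, and Sox30 (2.64-fold), Crem (2.30-fold) and Brdt (2.02-fold) were also downregulated. Thus 4 of 7 genes were called down, where 10.9% of the 16821 genes tested were, and 0 were called up in edgeR, where 4.15% of all were. DESeq2 also gave 4 down and 0 up, where 1811 and 710 of all genes were. At an unadjusted p-value under 0.05 edgeR gave 0 up, where 776 of all genes were. The median log2 fold change of the 7 genes was -1.01, against -0.01 for all genes tested. In 5 of the 7 genes every Xap5 cKO library lay below every WT library, which held for 32.4% of all genes.

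Crem was at 53.6, 50.6 and 45.7 CPM in WT testes and at 18.7, 28.4 and 18.2 CPM in Xap5 cKO testes. The groups were well apart, with Xap5 cKO replicate 2 the highest of its group. The log2 fold change of Crem was -1.20 ± 0.171 (SE, edgeR adjusted p = 0.000377). Its coactivator gene Fhl5 was counted 7, 30 and 20 times in WT against 27, 14 and 7 times in Xap5 cKO libraries, which is below 1 CPM everywhere. At this depth no difference in Fhl5 was detectable (log2 fold change -0.12 ± 0.710, edgeR adjusted p = 0.896), and the approximate 95% interval ran from -1.51 to 1.27. The value ran from -0.76 to 0.34 when any 1 library was left out.

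Gtf2a1l was counted 993, 885 and 454 times in WT against 14, 33 and 22 times in Xap5 cKO testes, or 29.6, 24.3 and 12.6 CPM against 0.435, 0.969 and 0.668 CPM. WT replicate 3 was the lowest control but lay far above every Xap5 cKO library. The log2 fold change was -4.99 ± 0.402 (edgeR adjusted p = 2.46e-05), and it stayed between -5.30 and -4.73 when any 1 library was left out. Among the 7 genes it was the only one whose Xap5 cKO libraries were below 1 CPM while its WT libraries were above it.

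Tbpl1 was at 121, 109 and 100 CPM in WT and at 58.7, 58.8 and 62.5 CPM in Xap5 cKO testes. The groups did not overlap, and the level was 1.83-fold lower, which passed the test (log2 fold change -0.88 ± 0.084, edgeR adjusted p = 4.92e-05) but not the fold threshold. Counted by the adjusted p-value alone, 5 of the 7 genes were lower, where 28.1% of all genes were, and 0 were higher, where 25% of all were.

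Taf7l, which lies on the X chromosome, was the exception among the abundant members. Its 8647, 9357 and 8940 WT counts, against 7970, 9109 and 10477 in Xap5 cKO, corresponded to 257, 257 and 248 CPM against 248, 267 and 318 CPM. The groups overlapped, with Xap5 cKO replicates 2 and 3 above all WT libraries and replicate 1 just below the lowest. A log2 fold change of 0.13 ± 0.087 did not pass the test (edgeR adjusted p = 0.245) and became 0.02 to 0.21 when any 1 library was left out. The approximate 95% interval, from -0.04 to 0.30, lies above the values of the other 5 genes detected above 1 CPM. The autosomal copy Taf7l2, chosen after its values were seen and listed as 4933416C03Rik in sperm, was counted 4188, 3811 and 2825 times in WT against 1046, 1218 and 1343 times in Xap5 cKO testes (log2 fold change -1.50, edgeR adjusted p = 8.58e-05). In sperm its log2 fold change was 1.08 (edgeR adjusted p = 0.0308). It shares 28.8% of its exonic bases with Ptprr on the opposite strand and no window of 100 bases with Taf7l.

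Brdt was at 198, 213 and 151 CPM in WT and at 82.1, 88.2 and 108 CPM in Xap5 cKO testes. WT replicate 3 was the lowest control and Xap5 cKO replicate 3 the highest of its group, with a gap between the groups. Its log2 fold change of -1.01 ± 0.139 (edgeR adjusted p = 0.000318) lay at the fold threshold, and without WT replicate 1, WT replicate 2, Xap5 cKO replicate 1 or Xap5 cKO replicate 2 it was -0.97, -0.91, -0.92 and -0.96, below a 2-fold change. Sox30 was at 48.5, 49.0 and 32.7 CPM in WT and at 14.6, 14.1 and 20.5 CPM in Xap5 cKO testes. Its pattern over libraries was like that of Brdt, with WT replicate 3 low and Xap5 cKO replicate 3 high. In Xap5 cKO testes the log2 fold change of Sox30 was -1.40 ± 0.196 (edgeR adjusted p = 0.000339).

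Cell type markers also differed between genotypes in testes. The 6 pachytene markers summed to 1787, 1712 and 919 CPM in WT and 151, 151 and 237 CPM in Xap5 cKO testes, and 5 of them were downregulated. WT replicate 3 and Xap5 cKO replicate 3 were thus nearest to each other in this list. WT replicate 3 was also the lowest control for Crem, Gtf2a1l, Tbpl1, Taf7l, Brdt and Sox30, and Xap5 cKO replicate 3 was also the highest of its group for Tbpl1, Taf7l, Brdt and Sox30. Leptotene and zygotene markers summed to 749 to 879 CPM in WT and 412 to 562 CPM in Xap5 cKO, with 5 of 6 downregulated. The round spermatid list summed to 17.0 to 34.4 CPM in WT and 10.1 to 11.9 CPM in Xap5 cKO. Of its 6 genes 2 were tested, and 1 was downregulated (log2 fold change -7.48). Sertoli cell markers summed to 882 to 982 CPM in WT and 1536 to 1594 CPM in Xap5 cKO, and 5 of 6 were higher at an adjusted p-value under 0.05. Of these 1 was called up. Spermatogonial markers summed to 585 to 687 CPM in WT and 436 to 467 CPM in Xap5 cKO. By the adjusted p-value alone 5 of 6 spermatogonial markers were lower and 1 was higher, and 1 was called down. In whole testes fewer spermatocytes and less RNA per spermatocyte cannot be told apart, and the part of cell composition in the values of the 7 genes was not tested. Without WT replicate 3 the same 4 genes were downregulated.

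**Figure D5:**
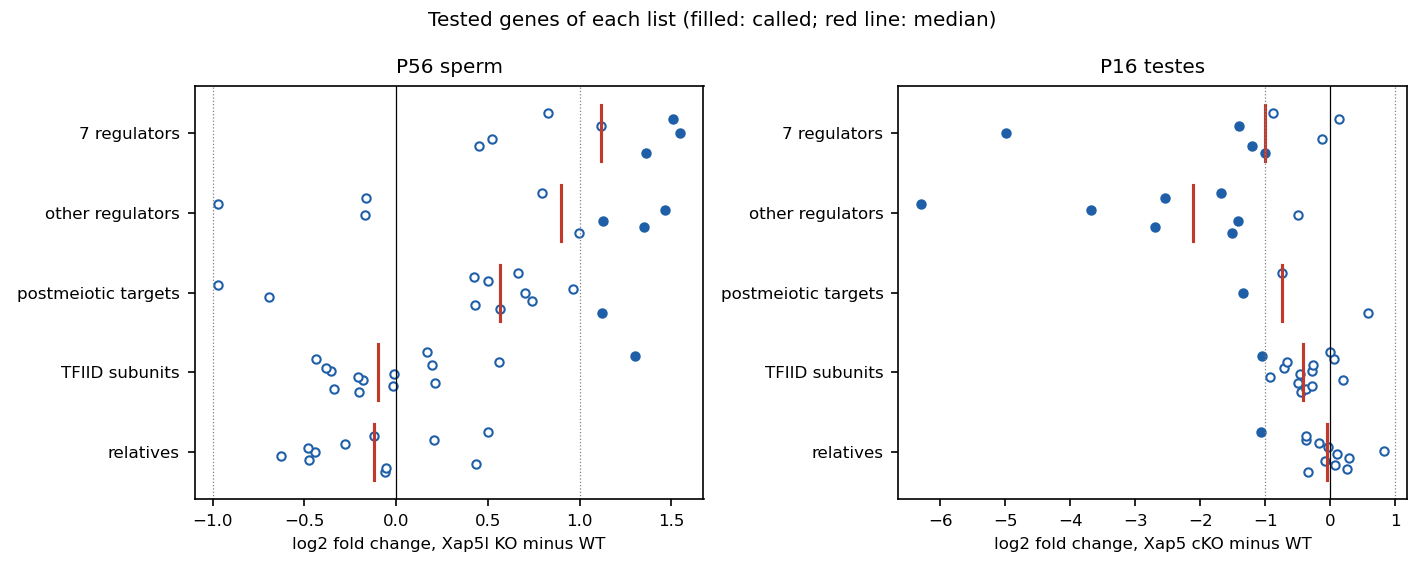
Log2 fold changes of the tested genes of 5 lists in Xap5l KO sperm (left) and Xap5 cKO testes (right), with filled points for called genes and red lines for medians. In sperm the medians are 1.12 for the 7 regulators, 0.90 for the other regulators and -0.12 for the widely expressed relatives, and in testes -1.01, -2.12 and -0.05.

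In testes 7 of the 8 other regulators were downregulated, and all 8 were lower at an adjusted p-value under 0.05. Piwil1 had the lowest value (log2 fold change -6.30, edgeR adjusted p = 8.80e-06), with 15140, 17286 and 7653 counts in WT against 165, 141 and 172 in Xap5 cKO. Papolb was at -3.69, Ddx25 at -2.70, the RFX factor gene Rfx2 at -2.55, Tcfl5 at -1.69, Creb3l4 at -1.51 and Kif17 at -1.43. Mybl1, a MYB factor of the pachytene stage, was lower by less than 2-fold (-0.50, edgeR adjusted p = 0.000717). WT replicate 3 was the lowest control for Rfx2, Mybl1, Tcfl5, Creb3l4, Papolb, Ddx25 and Piwil1, as for the pachytene markers.

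Of the 11 postmeiotic target genes only 3 passed the filter in testes. Camk4 was downregulated (138, 272 and 237 counts in WT against 50, 93 and 93 in Xap5 cKO, log2 fold change -1.35). Ace was higher by less than 2-fold (0.58, edgeR adjusted p = 0.00122), and Tsks was at -0.75. The protamine and transition protein genes had at most 12 counts in any testis library, so the level of CREM targets of late spermatids could not be compared at this age.

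The widely expressed relatives were on both sides of 0 in testes, with a median of -0.05 over 12 tested genes. Tbp, the TATA-binding protein and relative of Tbpl1, was the only one downregulated (-1.07, edgeR adjusted p = 0.000111). The LIM-only gene Fhl2 was higher (0.82, adjusted p = 0.000144) and Creb1 too (0.28, adjusted p = 0.00891), both by less than 2-fold. Gtf2a1 was at -0.17 (adjusted p = 0.0807), beside -4.99 for its germ cell version, and Taf7 at -0.38 (adjusted p = 0.00209), beside 0.13 for Taf7l. Of 14 other TFIID subunits 10 were lower at an adjusted p-value under 0.05 and only Taf9 passed the fold threshold (-1.05, edgeR adjusted p = 0.000356), with a median of -0.42. Taf2 (-0.93) and the gonadal subunit gene Taf4b (-0.71) were next.

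Set side by side, Gtf2a1l and Brdt were called in opposite directions in the 2 comparisons, up in Xap5l KO sperm (1.55 and 1.36) and down in Xap5 cKO testes (-4.99 and -1.01). Taf7l was called in sperm (1.51) and not in testes (0.13), and Crem (0.45 and -1.20) and Sox30 (1.12 and -1.40) were called in testes and not in sperm. Tbpl1 (0.83 and -0.88) was not called in either. The tissues, ages and genotypes differ between the 2 comparisons and the tables were normalized separately, so the difference between them was not tested.

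The gene with the profile closest to each regulator was found among genes of at least 5 CPM on average, as the smallest root mean square distance between centred log2 CPM profiles over the 6 libraries of a table. In sperm, among 10980 genes, Crem was closest to Arel1 (distance 0.055), Fhl5 to Cfap69 (0.039), Gtf2a1l to Slc9c1 (0.042), Tbpl1 to Cand1 (0.116), Taf7l to 4932415D10Rik (0.090), Brdt to Akap3 (0.058) and Sox30 to Als2cr11b (0.070). Sox30 had the fewest close genes, 19 within a distance of 0.2, against 310 for Brdt. In testes, among 12681 genes, Crem was closest to Tedc1 (0.091), Gtf2a1l to Ccdc65 (0.172), Tbpl1 to Pdcd5 (0.031), Taf7l to Cep85l (0.0070), Brdt to Ift22 (0.048) and Sox30 to Txnrd3 (0.040). For Gtf2a1l in testes only Ccdc65 lay within 0.2, whereas 3568 genes did for Taf7l. Fhl5 was closest to Rpl7a (0.204), but its own profile rests on 30 counts or fewer per library. With 6 libraries in 2 genotypes these distances describe the shape over the libraries only.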

How the data were processed

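Samples were grouped by their labels. Poly(A) RNA was sequenced as paired-end reads, which the authors mapped to GRCm38 with HISAT2 2.1.0. They deposited 1 table of raw whole-number counts for each tissue. The submitters' processing notes also name FastQC 0.11.2, Trimmomatic 0.36 and DESeq2 1.12.4. The counting tool, its annotation, the treatment of multimapping reads and the use of strand are not given in the sources used here.

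Each table was tested on its own with edgeR 4.0.16 (R 4.3.3): filterByExpr, TMM scaling and the quasi-likelihood test with genotype as the only term and Benjamini-Hochberg adjustment over all genes tested. Calls needed a fold change above 2 and an adjusted p-value under 0.05, the former being the threshold named in the study's methods. SE is that of the log2 fold change. The biological coefficient of variation over all genes was 0.287 (sperm) and 0.174 (testes). An exact permutation test of 3 libraries against 3 cannot go below 0.1, so no permutation test of single genes was made. RPKM used the exonic length of GENCODE genes on GRCm38. Start windows and motifs came from RefSeq promoters (GRCm38.p6). The script was tested on simulated data. The design text calls the replicates biological without naming animals, so the p-values measure the spread between these libraries. The genes named were the 7 members, genes of the 4 pathway lists (1 gene is not reported here), the 2 deleted genes, Taf7l2 (chosen after its values were seen), and for each member the 1 gene closest in profile. The cell type markers were 12 lists, which gave no call in sperm for spermatogonia, leptotene and zygotene, elongating, Leydig, myoid, leukocyte, epididymal, epithelial and erythroid lists, and 1 Sertoli gene down. In testes 1 of 6 spermatogonial genes and 1 of 2 tested round spermatid genes were down. In the same tissue 2 of 5 Leydig, 4 of 5 leukocyte, 1 of 6 Sertoli and 1 of 4 epithelial genes were up, and no myoid, erythroid or epididymal gene was called. The members and lists were chosen with earlier results of these data known. Alternatives were DESeq2 1.42.0, RLE factors, library size alone, no filter, at least 10 counts in every library, a replicate block, entries of one gene summed, no mitochondrially encoded genes, other thresholds, and leaving out each library.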

Additional observations from a re-analysis of the deposited data

How the results depend on the processing

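In sperm, no filter, at least 10 counts in every library, RLE factors, library size alone, entries of one gene summed and no mitochondrially encoded genes gave the same count of 3 upregulated regulators, DESeq2 gave 4, and an adjusted p under 0.01 gave 0 regulators and 0 genes of the whole table, up or down. Leaving out 1 library gave 0 to 5 upregulated regulators, 0 to 8 upregulated list genes (5 with all libraries), and 1 to 2402 upregulated and 1 to 443 downregulated genes of the whole table, where 1589 and 267 were called with all. The unadjusted p gave 2385 up and 605 down, library size alone 149 down, and no fold threshold 643 down. In testes, 3 to 4 regulators were downregulated when 1 library was left out, and the other alternatives gave 4, or 5 with no fold threshold, which gave 4202 genes up and 4734 down in the whole table, against 698 and 1837 with it. The log2 fold change of Fhl5 in testes ranged from -0.76 to 0.34 when 1 library was left out and changed sign without WT replicate 2 (0.34) and without Xap5 cKO replicate 3 (0.23). At least 10 counts in every library gave no value for it, since it was filtered out. The causes were not tested. Other scalings moved the median of all genes by less than 0.1 on the log2 scale.

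The replicate numbers were checked for pairing. Deviations of same-numbered libraries correlated at 0.149, -0.023 and -0.081 in sperm and 0.013, -0.014 and -0.008 in testes, so no pairing by number was seen. With so few libraries per group these correlations cannot exclude pairing. With a replicate block, 3 regulators were upregulated in sperm and 4 downregulated in testes, and 147 genes of the whole table were downregulated in sperm, against 267 without it. Depth limits Fhl5 in testes, at 30 counts or fewer per library, and Taf7l in WT sperm, at 109 or fewer.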
